A study of Mus musculus with 44 samples.

Results

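The triggering receptors expressed on myeloid cells (TREMs) and their paired immunoglobulin-like relatives were followed in MFs (macrophages) sorted from regenerating mouse muscle. The set was 7 genes out of 19938: Trem1, Trem2, Trem3, Tarm1, Pilra and Pilrb1, which encode surface receptors, and Tyrobp, which encodes the adaptor DAP12. The genes were chosen by symbol, not by a measured value. Each was read from the probe set annotated to that gene and no other, and where a gene had several such probe sets the one with the highest mean was taken. All 7 genes had one, and none was removed by a filter on low values. In the data of day 2 after injury, Trem1, Trem3, Tarm1, Pilra and Pilrb1 were lower in Ly6C- than in Ly6C+ MFs, Trem2 was higher, and Tyrobp differed by -0.05 on the log2 scale in the untreated WT arrays.

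TREM-family receptors carry a single immunoglobulin-like domain and almost no cytoplasmic tail, and they signal through an adaptor with an immunoreceptor tyrosine-based activation motif (ITAM). Trem1 is a receptor of neutrophils and monocytes that amplifies the response to microbial products, Trem3 is a related DAP12-coupled receptor present in mice, and Trem2 binds lipids and lipoproteins and is known from phagocytic, lipid-loaded tissue macrophages. Tarm1 is an activating receptor of myeloid cells that pairs with the Fc receptor gamma chain. Pilra and Pilrb1 are a paired set with similar ligand-binding domains and opposite tails: Pilra is inhibitory and carries ITIMs (inhibitory motifs), and Pilrb1 is activating and couples to DAP12. In injured muscle, Ly6C+ monocyte-derived MFs dominate the early infiltrate and give rise to Ly6C- MFs during repair.

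RefSeq promoter windows on GRCm38.p6, from 250 bases before to 50 bases after the annotated start, were matched by symbol for 5 of the 7 genes (Pilra, Pilrb1, Trem1, Trem2 and Tarm1). The first pair is shown because its windows are nearly the same, and the second because Trem1 and Trem2 moved in opposite directions. Pilra lies at chr5:137836229-137836528 and Pilrb1 at chr5:137858000-137858299, both on the minus strand. Trem1 lies at chr17:48232489-48232788 and Trem2 at chr17:48346151-48346450, both on the plus strand. Sequences run 5′ to 3′ along the gene's strand. Capitals mark a match on either strand to AGGAAGT, the core of the site of PU.1, or to TGANTCA. The latter is a loose form of the site of AP-1 that takes any middle base, and it reads TGANTCA on both strands. Whether PU.1 or AP-1 binds at these matches was not tested.
Pilra: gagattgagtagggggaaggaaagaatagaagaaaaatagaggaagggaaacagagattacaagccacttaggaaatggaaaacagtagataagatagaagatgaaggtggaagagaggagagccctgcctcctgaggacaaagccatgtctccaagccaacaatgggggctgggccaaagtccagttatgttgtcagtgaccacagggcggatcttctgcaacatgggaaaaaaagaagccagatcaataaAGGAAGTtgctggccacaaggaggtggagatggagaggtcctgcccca
Pilrb1: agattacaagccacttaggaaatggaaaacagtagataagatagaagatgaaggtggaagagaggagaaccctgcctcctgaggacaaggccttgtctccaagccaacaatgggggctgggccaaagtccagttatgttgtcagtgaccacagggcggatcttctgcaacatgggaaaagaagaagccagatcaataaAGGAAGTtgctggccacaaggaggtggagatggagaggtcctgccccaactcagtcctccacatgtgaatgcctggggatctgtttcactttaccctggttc
Trem1: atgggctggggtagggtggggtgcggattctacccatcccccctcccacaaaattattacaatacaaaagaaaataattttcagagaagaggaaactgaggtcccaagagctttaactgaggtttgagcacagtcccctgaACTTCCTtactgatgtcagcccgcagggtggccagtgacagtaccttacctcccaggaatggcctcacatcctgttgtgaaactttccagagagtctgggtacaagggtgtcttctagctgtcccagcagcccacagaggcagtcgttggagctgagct
Trem2: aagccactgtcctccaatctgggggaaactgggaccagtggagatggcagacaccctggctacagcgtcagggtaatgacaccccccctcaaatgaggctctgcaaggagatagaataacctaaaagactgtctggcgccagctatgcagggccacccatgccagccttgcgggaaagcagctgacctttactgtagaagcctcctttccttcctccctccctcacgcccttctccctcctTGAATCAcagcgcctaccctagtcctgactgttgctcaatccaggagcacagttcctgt

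The windows of Pilra and Pilrb1 aligned over 246 bases, of which 242 (98.4%) were identical, with bases 55 to 300 of the Pilra window set against bases 1 to 246 of the Pilrb1 window. AGGAAGT was found in the windows of Pilra, Pilrb1 and Trem1 and in 9.35% of all 32851 windows of this length, and in the first pair it falls in the aligned stretch. TGANTCA was found in the Trem2 window, there with A as the middle base, and in 7.81% of all windows. The DR1 element bound by PPARg and RXR, a direct repeat of AGGTCA with any single base between the repeats, was searched on both strands and was found in 0.0396% of all windows and in 0 of these 5. In the RefSeq annotation Pilra and Pilrb1 are neighbouring coding genes on chromosome 5, Trem1 and Trem3 are neighbours on chromosome 17 with Treml4, Treml2 and B430306N03Rik between Trem3 and Trem2, and Tarm1 is next to Oscar on chromosome 7. Probes for such close paralogs can capture each other's transcripts, so the values of Trem1 and Trem3, and of Pilra and Pilrb1 with Pilrb2, are uncertain to that extent.

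Injury was made with cardiotoxin (CTX) in the tibialis anterior muscle, and CD45+ cells were bead-selected and sorted as Ly6C+ F4/80low or Ly6C- F4/80high MFs. WT mice were C57B6/J, and KO mice were C57B6/J, PPARg fl/fl, LysM Cre+, in which Cre is expressed from the Lyz2 locus in the myeloid lineage, so Pparg deletion covers more cells than these MFs. The Ly6C+ groups were WT day 1 (4 arrays), KO day 1 (4), WT day 2 (6), KO day 2 (5), WT day 2 with rosiglitazone, a PPARg agonist (3), WT day 4 (4) and KO day 4 (4). The Ly6C- groups, all from day 2, were WT (6), KO (5) and WT with rosiglitazone (3). The labels call the replicates biological, but the design text speaks of 3 animals, so some arrays may share an animal, and p-values measure the spread between these 44 arrays. Age, sex and whether animals were pooled were not given in the sources used here.

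Pan-leukocyte Ptprc (10.36 to 11.60 on the log2 scale) and the MF markers Adgre1, Csf1r, Cd68 and Itgam (10.88 to 13.00) were far above the array medians of 6.64 to 6.77 in every array. Some arrays had marker values unlike those of other arrays with the same genotype or subset label. Lyz2, the locus of the Cre allele, read 12.82 to 13.06 in WT day 1 arrays, 12.81 to 13.15 in WT day 4 arrays, 12.86 to 13.19 in rosiglitazone arrays and 9.07 to 9.96 in KO arrays, but in WT day 2 replicates 1 to 3 it read 8.67 to 8.99 in Ly6C+ and 9.11 to 9.29 in Ly6C- MFs, against 12.64 to 13.02 and 12.79 to 12.96 in replicates 4 to 6. Lyz2 reads the Cre locus and not Pparg, so the genotype label of replicates 1 to 3 was not tested. Because the sets differ, comparisons of the 7 genes that use untreated WT day 2 MFs were also run with either set alone. So were the counts of the gene lists. Shares of all genes given below are from the fits with all arrays, and those with either set alone are not given here. The Pparg probe set read 9.21 in WT and 9.31 in KO arrays at day 1 and 9.94 and 10.18 at day 4; where it lies relative to the deleted part was not compared, so it checks no label. The day 4 arrays are labelled Ly6C+ F4/80low, but the 2 probe sets shared by Ly6c1 and Ly6c2 read 9.88 and 10.23 there in WT, against 11.91 and 12.15 in Ly6C+ and 8.78 and 9.24 in Ly6C- WT MFs of day 2, and Adgre1, which encodes the other sort marker, read 12.27, above both day 2 subsets (11.53 and 12.08). They are called day 4 MFs labelled Ly6C+.

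**Figure D1:**
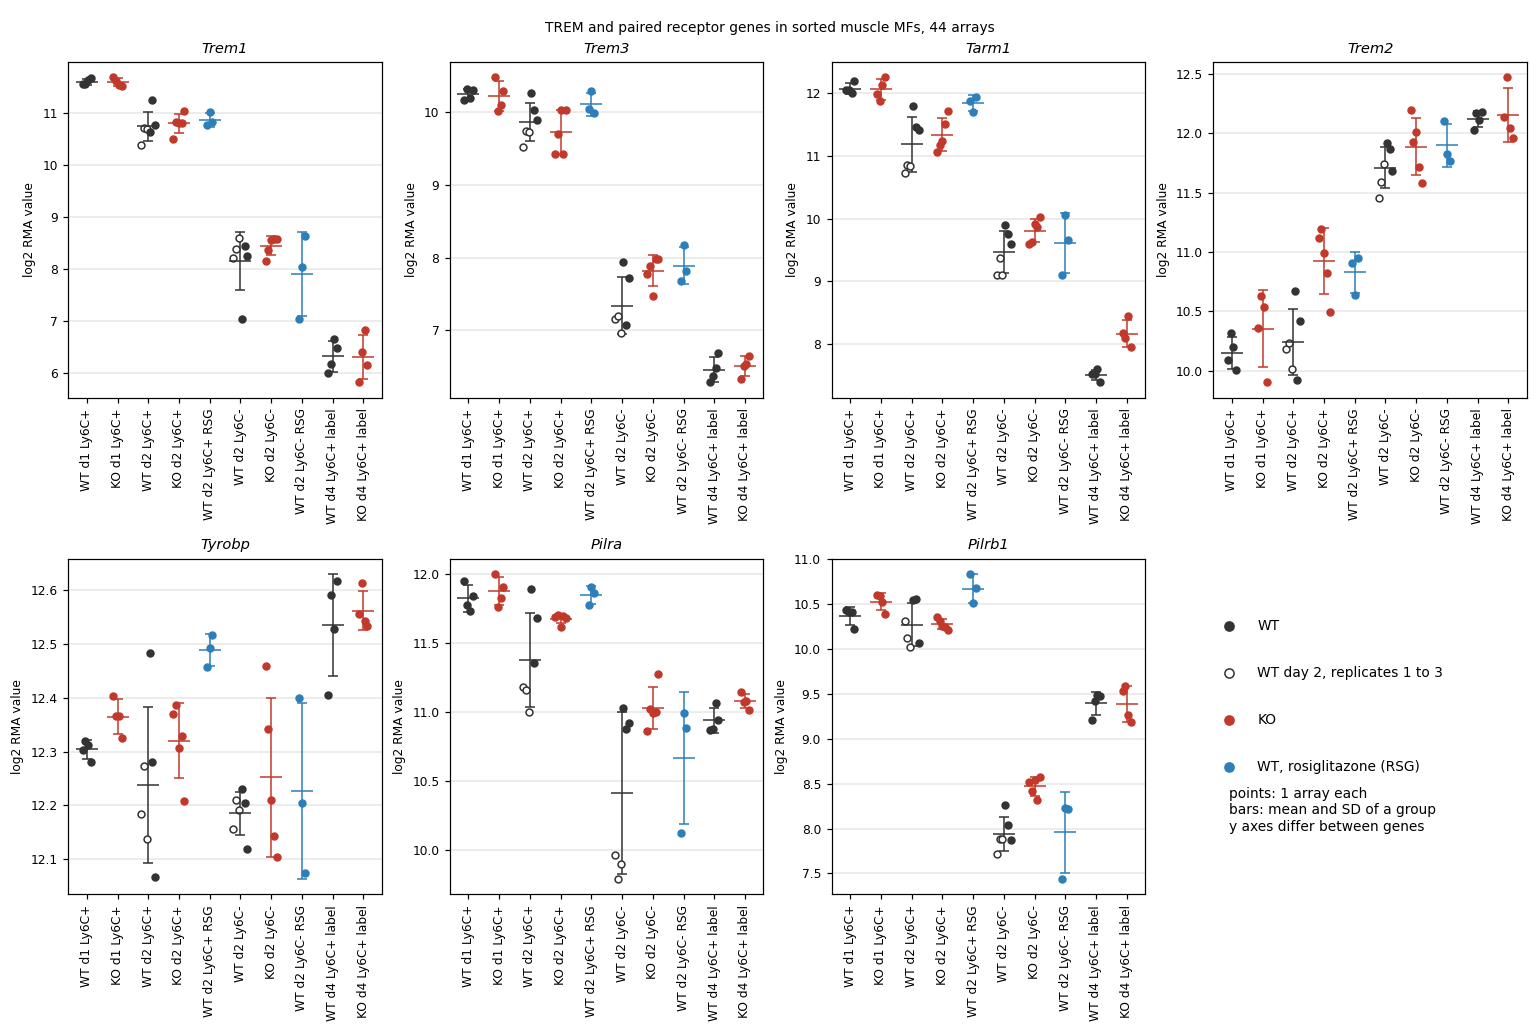
Log2 RMA value (y axis, a different range in each panel) of the 7 genes in the 10 groups (x axis; d, day; RSG, rosiglitazone), with 1 point per array and bars for the mean and SD. Open points are WT day 2 replicates 1 to 3; Trem1, Trem3 and Tarm1 step down from day 1 to day 4 with Ly6C- MFs between, Trem2 steps up, and Pilrb1 is lowest in the Ly6C- groups.

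The first comparison asked how the receptors differ between the inflammatory Ly6C+ and the repair-type Ly6C- MFs of day 2. In WT MFs 5 of the 7 genes were lower in Ly6C- MFs and 1 was higher at an adjusted p below 0.05 (limma with Benjamini-Hochberg adjustment over 19938 genes, used throughout). The background was large, since 23.0% of all genes were called lower and 22.2% higher. Trem1 read 10.39 at the lowest, 10.71 at the median and 11.26 at the highest of 6 Ly6C+ arrays, and 7.05 at the lowest, 8.33 at the median and 8.59 at the highest of 6 Ly6C- arrays. The 2 subsets did not overlap. Trem1 was 6.01-fold lower in Ly6C- MFs, a difference of -2.59 (SE 0.19, adjusted p = 2.6e-14). In the deposited log2 values, fewer cells of a type and less RNA per cell cannot be told apart.

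Trem3, the neighbour of Trem1, read 9.52 at the lowest, 9.82 at the median and 10.26 at the highest in Ly6C+ MFs and 6.97 at the lowest, 7.18 at the median and 7.93 at the highest in Ly6C- MFs. It was 5.74-fold lower in Ly6C- MFs (-2.52 (SE 0.14, adjusted p = 9.24e-19)), with no overlap. Tarm1, the gamma chain-coupled receptor, read 10.73 at the lowest, 11.13 at the median and 11.80 at the highest in Ly6C+ MFs and 9.10 at the lowest, 9.48 at the median and 9.89 at the highest in Ly6C- MFs. It was 3.28-fold lower in Ly6C- MFs (-1.71 (SE 0.15, adjusted p = 2.78e-12)). Each of these 3 activating receptors was lower in all 6 Ly6C- arrays than in any Ly6C+ array. How many of all genes were without overlap was not counted, here or in the comparisons below.

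Trem2, the lipid receptor, had the opposite order. It read 9.92 at the lowest, 10.21 at the median and 10.68 at the highest in Ly6C+ MFs and 11.45 at the lowest, 11.72 at the median and 11.92 at the highest in Ly6C- MFs. All 6 Ly6C- arrays exceeded all 6 Ly6C+ arrays, and the level was 2.77-fold higher (1.47 (SE 0.12, adjusted p = 6.76e-13)). Tyrobp, the adaptor that carries the signal of Trem1, Trem2, Trem3 and Pilrb1, read 12.07 to 12.48 in Ly6C+ and 12.12 to 12.23 in Ly6C- MFs. Its difference was -0.05 (SE 0.06, adjusted p = 0.477), with a 95% confidence interval of -0.17 to 0.07. The sign of this small difference turned when arrays were centred on their medians (0.01).

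The paired receptors were both lower in Ly6C- MFs. Pilrb1, the activating one, read 10.02 at the lowest, 10.22 at the median and 10.55 at the highest in Ly6C+ MFs and 7.71 at the lowest, 7.88 at the median and 8.26 at the highest in Ly6C- MFs. The subsets did not overlap, and Pilrb1 was 5.02-fold lower (-2.33 (SE 0.11, adjusted p = 3.4e-21)). Pilra, the inhibitory one, read 11.00 at the lowest, 11.27 at the median and 11.89 at the highest in Ly6C+ MFs and 9.79 at the lowest, 10.43 at the median and 11.03 at the highest in Ly6C- MFs. It was 1.95-fold lower (-0.96 (SE 0.16, adjusted p = 4.13e-06)), and the subsets touched, with 5 of 6 Ly6C- arrays below every Ly6C+ array. Pilra differed between the sets of replicates that Lyz2 separates: its subset difference was -1.23 in replicates 1 to 3 and -0.70 in replicates 4 to 6, and both passed the test. The other 5 genes that passed with all arrays also passed in either set alone, with Trem1 at -2.20 and -2.97 and Trem2 at 1.45 and 1.49.

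The same order held in KO MFs, where 5 genes were lower and 1 higher in the Ly6C- subset, against 18.6% and 19.8% of all genes. Trem1 read 10.51, 10.84, 10.81, 10.82 and 11.04 in KO Ly6C+ and 8.17, 8.36, 8.56, 8.57 and 8.58 in KO Ly6C- MFs, a difference of -2.36 (SE 0.21, adjusted p = 8.51e-12). The differences were -1.90 for Trem3, -1.53 for Tarm1 and -1.80 for Pilrb1. Trem2 was higher by 0.96 (SE 0.14), reading 11.12, 11.20, 11.00, 10.83 and 10.50 in KO Ly6C+ and 12.20, 11.92, 12.02, 11.72 and 11.59 in KO Ly6C- MFs. Pilra was lower, at -0.64 on the log2 scale, with an adjusted p of 0.00347, and Tyrobp differed by -0.07 (95% confidence interval -0.20 to 0.07, adjusted p = 0.401).

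With rosiglitazone, 6 genes were lower and 1 higher in Ly6C- MFs, against 8.68% and 14.6% of all genes. Trem1 read 10.77, 11.03 and 10.84 in the Ly6C+ and 7.04, 8.04 and 8.64 in the Ly6C- arrays, a difference of -2.98 (SE 0.27, adjusted p = 1.98e-11), and these 3 Ly6C- arrays spread more widely than any other Trem1 group. Pilrb1 (-2.71), Tarm1 (-2.23), Trem3 (-2.22) and Pilra (-1.18) were lower, and Trem2 was higher (1.07). Tyrobp read 12.46, 12.49 and 12.52 in Ly6C+ and 12.40, 12.21 and 12.08 in Ly6C- MFs, a difference of -0.26 (SE 0.09, adjusted p = 0.0206). Here the replicate numbers paired the samples, but the values above come from the fit of group means, which leaves the pairs out. With the number as a block the Tyrobp call was lost (adjusted p = 0.0995). It was also lost without Ly6C+ replicate 3 (0.0689), Ly6C- replicate 2 (0.0662) or Ly6C- replicate 3 (0.175).

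Whether the subset difference itself depended on genotype or on rosiglitazone was tested as a difference of differences. No member passed: 0 of 7 for genotype, with 0.01% of all genes called, and 0 of 7 for rosiglitazone, with 0.015% called. At an unadjusted p below 0.05 there were 3 members and 559 genes for genotype and 1 member and 1547 genes for rosiglitazone. The 3 in the genotype comparison were Trem3 (0.62), Pilrb1 (0.53) and Trem2 (-0.51), all with an adjusted p of 1. With either set of WT day 2 replicates alone, 0 members passed in either test.

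**Figure D2:**
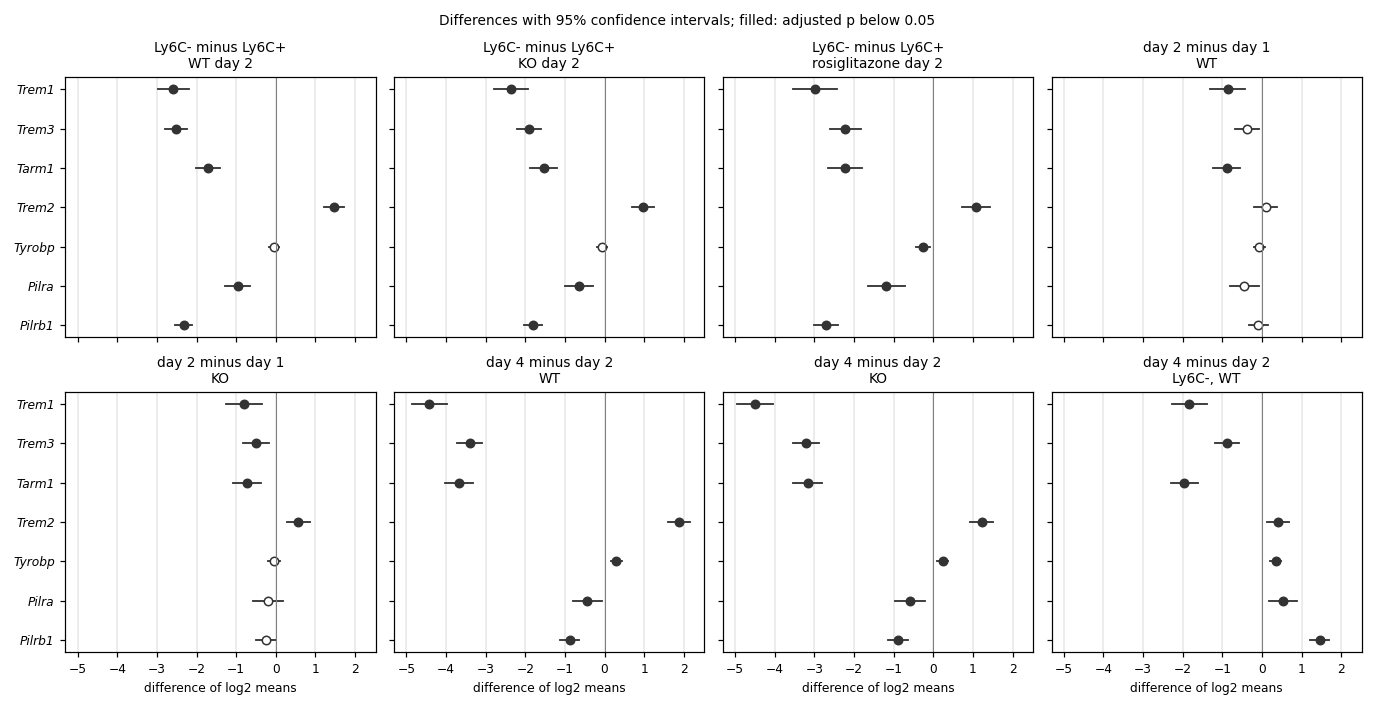
Differences of group means on the log2 scale (x axis) for the 7 genes (y axis) in 8 comparisons, with 95% confidence intervals; filled points passed an adjusted p of 0.05. Trem1, Trem3 and Tarm1 lie left of zero in all 8 panels, Trem2 lies right of zero in all 8, and Pilrb1 changes side in the last panel, where day 4 is set against the Ly6C- MFs of day 2.

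Over time, Trem1, Trem3 and Tarm1 had their highest group means at day 1 and their lowest at day 4. From day 1 to day 2 in WT Ly6C+ MFs, 2 members fell and 0 rose, against 3.17% and 6.51% of all genes. Trem1 read 11.57, 11.56, 11.63 and 11.68 at day 1 and fell by 0.87 on the log2 scale (adjusted p = 0.00684). Tarm1 read 12.04, 12.05, 12.00 and 12.19 at day 1 and fell by 0.89 (adjusted p = 0.00038). The other 5 did not pass, with -0.38 for Trem3 and -0.45 for Pilra the largest differences. Against WT day 2 replicates 1 to 3 alone, 4 members passed, with Trem3 at -0.58 and Pilra at -0.71 added, and against replicates 4 to 6 alone only Tarm1 passed (-0.52) while Trem1 had an adjusted p of 0.0691. Leaving out WT day 2 Ly6C+ replicate 4 also gave 4.

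In KO Ly6C+ MFs from day 1 to day 2, 3 members fell and 1 rose, against 2.58% and 6.06% of all genes. Trem1 read 11.70, 11.63, 11.55 and 11.52 at day 1 and fell by 0.79 (adjusted p = 0.0219), Tarm1 fell by 0.72 (adjusted p = 0.0075) and Trem3 fell by 0.50 (adjusted p = 0.0401). Trem2 read 10.36, 10.63, 10.54 and 9.90 at day 1 and rose by 0.57 (adjusted p = 0.00948), while in WT MFs its difference was 0.09 (95% confidence interval -0.19 to 0.37). The 2 genotypes were not shown to differ in this step: 0 members passed the test of the difference, with 0.01% of all genes called, and 1 member and 1782 genes had an unadjusted p below 0.05. With WT day 2 replicates 1 to 3 alone Pilra passed that test (0.51, adjusted p = 0.0423), and with replicates 4 to 6 alone 0 members did (Pilra -0.02). Single arrays decided part of the KO count, which was 2 without KO day 1 replicate 1, KO day 1 replicate 4 or KO day 2 Ly6C+ replicate 1.

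From day 2 Ly6C+ MFs to day 4 MFs labelled Ly6C+, all 7 genes passed in WT, 5 lower and 2 higher, against 26.0% and 23.8% of all genes. Trem1 read 5.99, 6.17, 6.65 and 6.49 at day 4, below the array medians, and was 21.4-fold lower than at day 2 (-4.42 (SE 0.22, adjusted p = 2.47e-20)). Tarm1 read 7.52, 7.53, 7.60 and 7.39 at day 4 and was 12.7-fold lower (-3.67 (SE 0.17, adjusted p = 3.46e-21)). Trem3 read 6.28, 6.37, 6.48 and 6.69 at day 4, also around or below the array medians, and was 10.6-fold lower (-3.40 (SE 0.15, adjusted p = 1.18e-21)). These were the 3 largest falls among the members, and none of the 3 overlapped between day 4 and the Ly6C+ MFs of day 2. The share of all genes without overlap in this step was not counted. At such low values the fold changes depend on the array background. All 3 passed against either set of WT day 2 replicates, with Trem1 at -4.28 and -4.57, Tarm1 at -3.30 and -4.05 and Trem3 at -3.20 and -3.60 for replicates 1 to 3 and 4 to 6.

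Trem2 rose to the highest level of all WT groups, 12.03, 12.17, 12.11 and 12.18 at day 4, which was 3.69-fold above day 2 Ly6C+ MFs (1.88 (SE 0.14, adjusted p = 7.59e-15)). Tyrobp rose by 0.30 (adjusted p = 0.000328), reading 12.41, 12.59, 12.53 and 12.62. Pilrb1 read 9.21, 9.41, 9.48 and 9.47 and fell by 0.87. Pilra read 10.87, 10.88, 11.07 and 10.95 and fell by 0.44 with an adjusted p of 0.0393; it did not pass against WT day 2 replicates 1 to 3 alone (-0.17), nor without WT day 2 Ly6C+ replicate 4 (-0.33, adjusted p = 0.108), replicate 6 (0.0878), or WT day 4 replicate 1 (0.077), 2 (0.0824) or 4 (0.0711), and it was -0.70 against replicates 4 to 6.

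In KO MFs the step from day 2 to day 4 had the same directions, with 5 lower and 2 higher members against 22.5% and 22.3% of all genes. Trem1 read 5.82, 6.41, 6.84 and 6.16 at KO day 4 and was 22.6-fold lower than at day 2 (-4.50 (SE 0.23, adjusted p = 7.94e-20)). Tarm1 (-3.17) and Trem3 (-3.22) fell, and Trem2 rose by 1.23 (SE 0.14), reading 12.14, 12.47, 12.04 and 11.96 at day 4. The Trem2 step differed between KO and WT MFs by -0.66 on the log2 scale (adjusted p of the difference = 0.299), and 0 members passed that test, with 0.0301% of all genes called and 2 members and 1686 genes at an unadjusted p below 0.05. With WT day 2 replicates 1 to 3 alone Trem2 passed (-0.75, adjusted p = 0.0231), and with replicates 4 to 6 alone 0 members did (Trem2 -0.56, adjusted p = 0.327).

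Since Adgre1 in the day 4 arrays was nearer to its level in Ly6C- MFs, they were also set against the WT Ly6C- MFs of day 2; this comparison shares its day 4 arrays with the one above. All 7 members passed, 3 lower and 4 higher, against 15.2% and 14.1% of all genes. Trem1 (-1.83 (SE 0.22, adjusted p = 5.95e-09)), Tarm1 (-1.96 (SE 0.17, adjusted p = 2.11e-12)) and Trem3 (-0.88 (SE 0.15, adjusted p = 1.02e-05)) were lower at day 4 than in the Ly6C- MFs of day 2. Pilrb1 was 2.74-fold higher at day 4 (1.45 (SE 0.12, adjusted p = 3.3e-13)), and every day 4 array lay above every Ly6C- and below every Ly6C+ array of day 2. Trem2 (0.41 (SE 0.14, adjusted p = 0.0205)) and Tyrobp (0.35 (SE 0.07, adjusted p = 5.95e-05)) were higher. The Trem2 call was lost without WT day 2 Ly6C- replicate 1 (0.0561) or WT day 4 replicate 2 (0.0544) or 4 (0.0543), and against replicates 4 to 6 alone (adjusted p = 0.225). Pilra was higher by 0.52 with all arrays (adjusted p = 0.0215), but by 1.05 against replicates 1 to 3 and -0.0049 against replicates 4 to 6. This call thus rests on replicates 1 to 3, whose Lyz2 value was unlike that of the other WT arrays.

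Neutrophils also carry Trem1 and Tarm1, so the 16 neutrophil markers were measured beside these results. The mean of the 16 markers on the log2 scale ranged from 7.31 to 7.35 in WT day 1 arrays, from 6.83 to 7.08 in WT day 2 Ly6C+ arrays, from 6.57 to 6.74 in WT day 2 Ly6C- arrays and from 6.36 to 6.43 in WT day 4 arrays, the same order as Trem1. In WT MFs, 8 of the 16 were lower and 2 higher in the Ly6C- subset, against 23.0% and 22.2% of all genes. From day 1 to day 2, 5 fell and 0 rose, against 3.17% and 6.51%. From day 2 to day 4, 12 fell and 1 rose, against 26.0% and 23.8%. Of the defining markers, Ly6g read 4.78 to 6.32 and Cxcr2 4.29 to 6.48 over all arrays, under the array medians throughout, and both were lower in WT Ly6C- MFs of day 2 (-0.64 and -1.24). Lcn2 (-2.46) and S100a9 (-0.73) were lower too, while S100a8 (0.44) and Mmp8 (0.48) were higher. Markers of other cell types were counted as well. In WT Ly6C- MFs of day 2, 5 of 6 endothelial, 5 of 7 fibroblast and 4 of 9 dendritic cell markers were lower. So were 4 of 8 eosinophil and mast cell and 5 of 11 NK and T cell markers. Of these lists' markers 0 were higher, where 23.0% of all genes were lower and 22.2% higher. From day 2 Ly6C+ MFs to day 4, 5 of 6 endothelial markers fell and 4 of 8 muscle fibre markers rose, where 26.0% of all genes fell and 23.8% rose. With WT day 2 replicates 4 to 6 alone, 2 of 6 endothelial markers were lower in Ly6C- MFs and 3 fell to day 4. The part of neutrophil or other RNA in the results for the 7 genes was not tested.

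KO mice, with Pparg deleted in the myeloid lineage, were compared with WT in each time and subset. KO mice also carry the Cre allele, and Lyz2 was low in KO but high in WT arrays of days 1 and 4. The parts of Pparg loss and of the Cre allele in the differences below were not tested. At day 1 no member passed, with 0.0351% of all genes called and 0 members and 621 genes at an unadjusted p below 0.05. The largest member differences were 0.20 for Trem2 (95% confidence interval -0.10 to 0.51) and 0.16 for Pilrb1 (95% confidence interval -0.10 to 0.42). At day 4 no member passed either, with 0.0652% of genes called and 1 member and 592 genes at an unadjusted p below 0.05. That member was Tarm1, which read 7.52, 7.53, 7.60 and 7.39 in WT and 8.18, 8.09, 8.45 and 7.95 in KO arrays. The groups did not overlap, and the difference was 0.66 (SE 0.19, adjusted p = 0.624). Fitted on the 8 day 4 arrays alone, Tarm1 passed (adjusted p = 0.0327).

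In Ly6C+ MFs of day 2, Trem2 was higher in KO than in WT arrays, and it was the only member of 7 to pass, against 1.88% of all genes. The 5 KO arrays read 11.12, 11.20, 11.00, 10.83 and 10.50, and the 6 WT arrays read 9.92 at the lowest, 10.21 at the median and 10.68 at the highest. The groups overlapped at KO replicate 5 and WT replicate 4, and the difference was 0.69 (SE 0.13, adjusted p = 0.00385). Trem2 differed from WT replicates 1 to 3 by 0.78 (adjusted p = 0.000232) and from replicates 4 to 6 by 0.59 (adjusted p = 0.0497), so it passed with either set. It did not pass when only the arrays of both groups were fitted (adjusted p = 0.121). Of 6 endothelial markers, 3 were lower in these KO arrays, Emcn (-0.80), Cdh5 (-0.63) and Pecam1 (-0.36). With rosiglitazone in Ly6C+ MFs 4 of 6 were lower, where 11.1% of all genes were called in either direction. Against replicates 1 to 3 these counts were 5 and 6, and against replicates 4 to 6 both were 0, with no share of all genes given for these fits. The part of endothelial RNA in the Trem2 difference was not tested. Against replicates 1 to 3, Tarm1 (0.53) and Pilra (0.56) passed beside Trem2, and against replicates 4 to 6 Tarm1 and Pilra read -0.22 and 0.03.

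In Ly6C- MFs of day 2, Pilrb1 was higher in KO arrays and was the only member to pass, against 0.201% of all genes. It read 8.52, 8.41, 8.54, 8.32 and 8.57 in the 5 KO arrays and 7.71 at the lowest, 7.88 at the median and 8.26 at the highest of the 6 WT arrays. All 5 KO arrays lay above all WT arrays, and the difference was 0.53 (SE 0.11, adjusted p = 0.0182). The call was lost without WT replicate 1 (0.0914) or 2 (0.0558) or without KO replicate 1 (0.0831), 3 (0.066) or 5 (0.0587). Pilra read 10.86, 11.03, 10.99, 11.00 and 11.28 in KO arrays and differed by 0.61 (SE 0.17, adjusted p = 0.11), and Trem3 differed by 0.48 (SE 0.14, adjusted p = 0.198). Leaving out WT replicate 4 brought Pilra (0.74, adjusted p = 0.0197) and Trem3 (0.60, adjusted p = 0.0253) past the threshold, and leaving out WT replicate 5 or 6 brought Pilra past it.

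The KO difference in Ly6C- MFs depended on which WT arrays were used. WT replicates 1 to 3 had a Lyz2 level close to that of the KO arrays. Against them, Pilra was higher in KO by 1.14 (adjusted p = 5.37e-09), Trem3 by 0.71, Pilrb1 by 0.65 and Tarm1 by 0.61, and all 4 passed. Against WT replicates 4 to 6, whose Lyz2 level was that of the other WT groups, 0 members passed, with Pilrb1 at 0.41 (adjusted p = 0.756), Trem3 at 0.24 and Pilra at 0.09. The WT arrays of Pilra fell into the same sets as Lyz2, at 9.79 to 9.97 in replicates 1 to 3 and 10.88 to 11.03 in replicates 4 to 6.

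**Figure D3:**
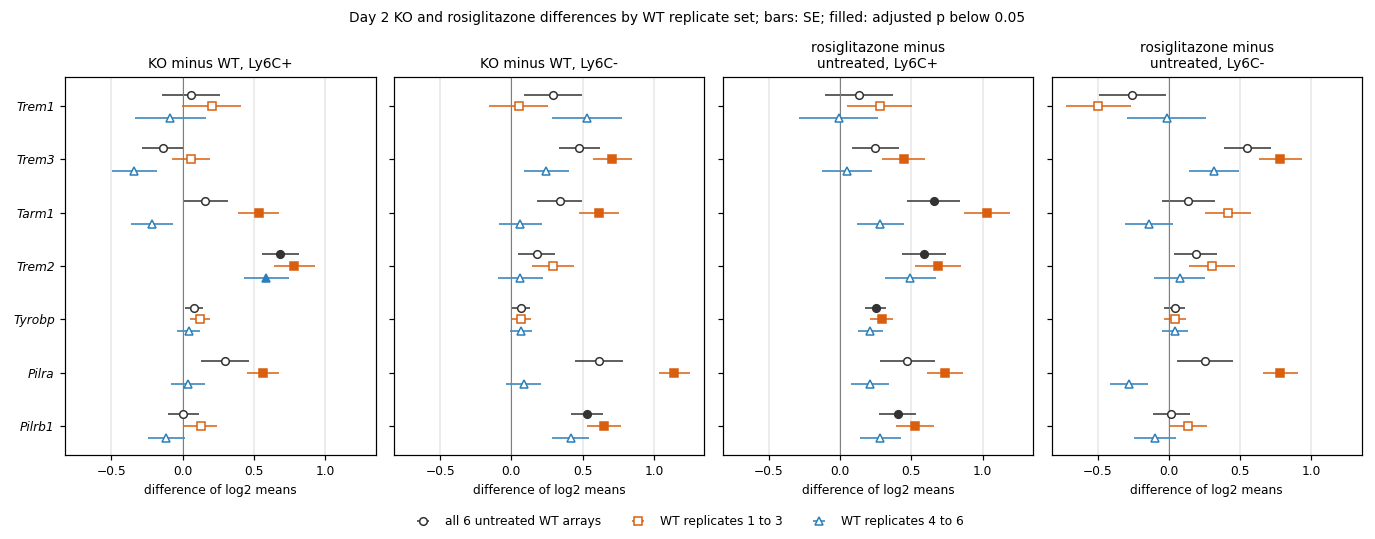
Differences of log2 means (x axis) of KO minus WT and of rosiglitazone minus untreated MFs of day 2 for the 7 genes (y axis), with SE bars, against all 6 untreated WT arrays (circles), WT replicates 1 to 3 (squares) or WT replicates 4 to 6 (triangles); filled symbols passed an adjusted p of 0.05. The squares lie to the right of the triangles for Tarm1, Pilra, Pilrb1, Trem2 and Trem3 in all 4 panels.

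Rosiglitazone was compared with untreated WT MFs of day 2, which are the same WT arrays as in the KO comparison. In Ly6C+ MFs 4 of 7 members passed, all higher, against 11.1% of all genes called in either direction. Trem2 read 10.90, 10.63 and 10.95 with rosiglitazone, a difference of 0.59 (SE 0.15, adjusted p = 0.00922). Tarm1 read 11.88, 11.70 and 11.94, a difference of 0.66 (SE 0.19, adjusted p = 0.0176). Tyrobp read 12.46, 12.49 and 12.52, a difference of 0.25 (SE 0.07, adjusted p = 0.0231), and Pilrb1 read 10.83, 10.51 and 10.68, a difference of 0.40 (SE 0.13, adjusted p = 0.0356). Each of these groups overlapped the untreated arrays, which reached 10.68 for Trem2, 11.80 for Tarm1, 12.48 for Tyrobp and 10.55 for Pilrb1. Pilra differed by 0.47 (SE 0.19, adjusted p = 0.114) and Trem1 by 0.13 (95% confidence interval -0.35 to 0.61).

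These calls depended on the WT arrays used and on single arrays. Against WT replicates 1 to 3, 6 members passed, with Tarm1 at 1.03 and Pilra at 0.73. Against replicates 4 to 6, 0 passed, with Trem2 at 0.49 (adjusted p = 0.148), Tarm1 at 0.28 and Pilrb1 at 0.28. The share of all genes called with either set alone is not given here, so these counts have no background beside them. The count was 0 without rosiglitazone replicate 1 or 3 and 2 without WT replicate 3 or 6. Of the 16 neutrophil markers, 2 were higher with rosiglitazone and 0 lower, near the 11.1% of all genes called in either direction. The 2 were Lcn2 (1.34, adjusted p = 0.000561) and Mmp8 (0.53, adjusted p = 0.00552). The median of the 16 differences was -0.07, against -0.02 over all genes. Against replicates 4 to 6 alone 0 of the 16 passed. In Ly6C- MFs no member passed, with 0.0351% of all genes called and 1 member, Trem3, and 1920 genes at an unadjusted p below 0.05. Trem3 read 7.68, 8.17 and 7.82 with rosiglitazone and differed by 0.55 (SE 0.17, adjusted p = 0.252); it passed without WT replicate 4 (0.67, adjusted p = 0.0186) and against replicates 1 to 3 (0.78), as did Pilra (0.78), which was -0.28 against replicates 4 to 6.

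Ordered by mean, the WT, KO and rosiglitazone groups of 1 time and subset stood next to each other for Trem1, Trem3 and Tarm1, and not for the other 4 members. For Trem1 the order was day 1, day 2 Ly6C+, day 2 Ly6C- and day 4, and arrays overlapped within each of these steps but not between them. Trem3 and Tarm1 had the same order, with overlap also between day 1 and the Ly6C+ MFs of day 2, and for Tarm1 without overlap between KO and WT at day 4. Trem2 ran the other way, with day 4 and day 2 Ly6C- groups overlapping at the top, KO and rosiglitazone Ly6C+ groups in the middle, and WT day 2 Ly6C+ and both day 1 groups overlapping at the bottom. For Pilra the rosiglitazone Ly6C+ group lay between the KO and WT groups of day 1, and the KO and WT day 4 groups lay on either side of the KO Ly6C- group. Pilrb1 placed day 4 (9.39 ± 0.13 (SD, n = 4) in WT) between the Ly6C+ (10.27 ± 0.24 (SD, n = 6)) and the Ly6C- (7.94 ± 0.19 (SD, n = 6)) groups of day 2. The group means of Tyrobp spanned 12.19 to 12.56. Of groups next to each other in this order, only the rosiglitazone Ly6C+ group and the KO day 1 group below it did not overlap. The WT day 2 Ly6C+ group, further down, reached 12.48 and overlapped the rosiglitazone Ly6C+ arrays (12.46 to 12.52).

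Across the 44 arrays, which share 1 normalisation and fall into these groups, the members' values can be described by Pearson's r. Trem1 had an r of 0.964 with Trem3 and 0.966 with Tarm1, and -0.916 with Trem2. Once each group's mean was subtracted, these became -0.0444, 0.184 and -0.343. Tarm1 and Pilra kept an r of 0.746 after the subtraction (0.723 before), and Pilra and Pilrb1 had 0.861 before and 0.552 after. Trem2 and Tyrobp had 0.283 before and 0.591 after. Subtracting group means leaves the difference between the 2 sets of WT day 2 replicates in these values. In WT day 2 Ly6C- MFs the mean of Pilra was 9.89 in replicates 1 to 3 and 10.95 in replicates 4 to 6. That of Tarm1 was 9.19 and 9.74. The part of this difference in the r values was not tested.

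The genes whose pattern over the 44 arrays was most like that of each member were taken by Pearson's r, predicted genes left out. For Trem1 they were F10 (coagulation factor X, 0.987), Gpat3, Plcb1, Gsr and Lrrfip1 (0.972), and for Trem3 they were Plcb1 (0.981), Ms4a8a, Hp (haptoglobin), Gsr and Vcan (0.97). For Tarm1 they were Gsr (glutathione reductase, 0.979), F10, Pid1, Uck2 and Ccr1 (0.971). Trem2 was nearest to Tex264 (0.976), Pld3, Man2b2, Tpra1 and Sgsh (0.964), of which Man2b2 and Sgsh encode lysosomal hydrolases. Pilrb1 was nearest to Cd244a (0.97), Plac8, Pilrb2, Clec4a2 and Gpr141 (0.961), and Pilra to Fmnl1 (0.917), Clec4a2, Lsp1, Pilrb2 and Tagap (0.897). Tyrobp had lower values, from Tifab (0.856) through Mical1, Sh3bp1 and Cyp4f18 to Mknk1 (0.84).

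Of 14 listed TREM and CD300 relatives, 12 were measured. In WT MFs of day 2, 5 were lower and 1 higher in the Ly6C- subset, where 23.0% of all genes were lower and 22.2% higher. The median of the 12 differences was -0.13, against -0.07 over all genes. Treml4, a TREM-like receptor of myeloid cells, read 7.50 in Ly6C- and 9.51 in Ly6C+ MFs (-2.00, adjusted p = 7.45e-19). Pilrb2, a close paralog of Pilrb1, read 6.94 and 8.75 (-1.81), and Treml2 and Cd300ld were lower by smaller differences (-0.74 and -0.47). Oscar, next to Tarm1 on chromosome 7, differed by -0.0011 (adjusted p = 0.993).

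At day 4, Treml4 and Pilrb2 were closer to the Ly6C+ than to the Ly6C- MFs of day 2, as Pilrb1 was. Treml4 read 9.50 at day 4, 1.99 above the Ly6C- MFs (adjusted p = 4.98e-17), and Pilrb2 read 8.25, 1.31 above (adjusted p = 5.06e-07). The inhibitory receptor Cd300a and its relative Cd300c2 rose from day 2 Ly6C+ MFs to day 4 by 0.88 and 0.80. In that step 2 of the 12 rose and 4 fell, where 23.8% of all genes rose and 26.0% fell. Against the Ly6C- MFs 6 were higher and 2 lower, where 14.1% of all genes were higher and 15.2% lower. None of the 12 passed between KO and WT in either subset of day 2; against WT replicates 1 to 3 alone 2 were higher and 1 lower in each subset, and against replicates 4 to 6 alone 1 was lower, in Ly6C+ MFs. With rosiglitazone Pilrb2 (0.64, adjusted p = 0.0408) and Cd300ld (0.56, adjusted p = 0.0039) were higher in Ly6C+ MFs, but against replicates 4 to 6 alone neither passed (0.32 and 0.40).

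**Figure D4:**
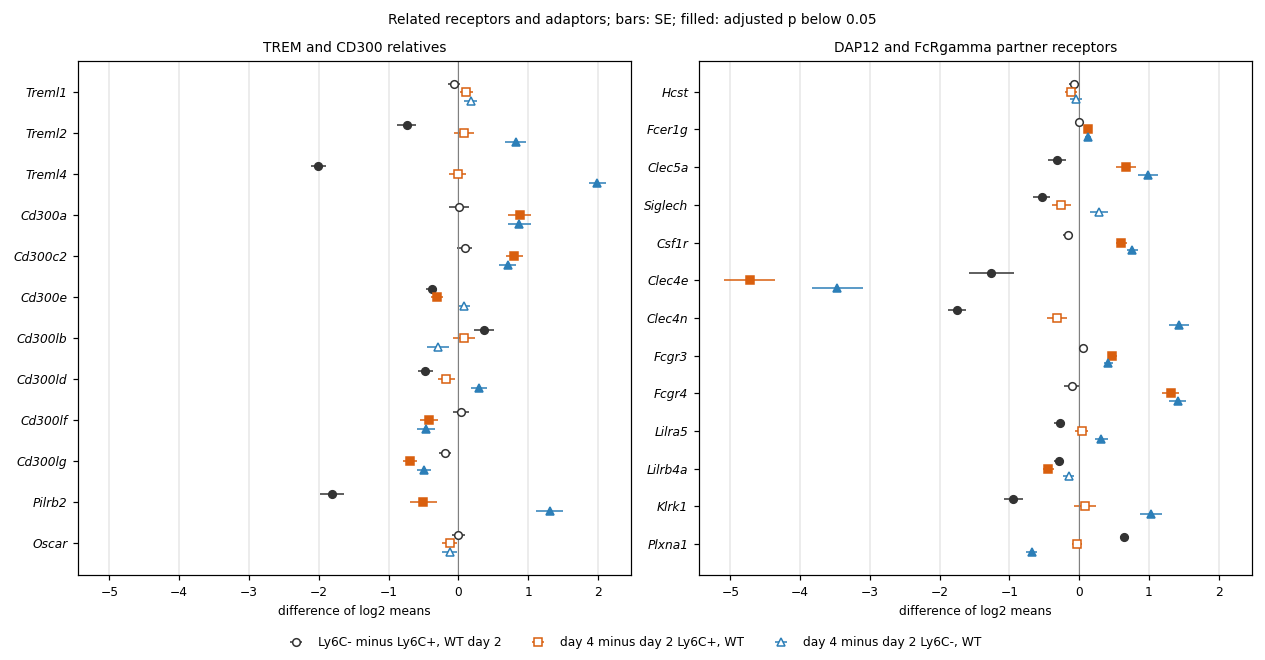
Differences of log2 means in WT MFs (x axis) for the 12 measured TREM and CD300 relatives (left) and 13 measured partners of DAP12 and the Fc receptor gamma chain (right), with SE bars; filled symbols passed an adjusted p of 0.05. Circles give Ly6C- minus Ly6C+ at day 2, squares and triangles day 4 minus day 2 Ly6C+ and Ly6C- MFs; Treml4, Pilrb2 and Clec4n have circles far to the left and triangles far to the right.

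The partners of DAP12 and the gamma chain were measured for 13 of 14 listed genes, and 7 were lower and 1 higher in WT Ly6C- MFs (median -0.28), where 23.0% of all genes were lower and 22.2% higher. The adaptors themselves were close to level between subsets: Fcer1g, the gamma chain, read 12.77 in both (adjusted p = 0.945), and Hcst, which encodes DAP10, differed by -0.07 (adjusted p = 0.458). The C-type lectins Clec4n (Dectin-2, -1.75) and Clec4e (Mincle, -1.26) were lower in Ly6C- MFs, and Plxna1, a semaphorin receptor that can associate with Trem2 and DAP12, was higher (0.65). By day 4, Clec4e had fallen by 4.72 from the Ly6C+ MFs of day 2, and Fcgr4 (1.31) and Csf1r (0.61) had risen, with 5 of the 13 higher and 2 lower, where 23.8% of all genes were higher and 26.0% lower; with replicates 4 to 6 alone 3 were higher. Lilrb4a, also on the list, carries inhibitory motifs.

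Downstream of the receptors, 19 of 21 listed ITAM kinases and adaptors were measured. In WT Ly6C- MFs 9 were lower and 2 higher (median -0.16), where 23.0% of all genes were lower and 22.2% higher. Blnk, an adaptor that is phosphorylated by Syk, was higher by 1.87 and the Src-family kinase Fgr was lower (-1.18). Of 13 phosphatases and negative regulators, 3 were higher and 1 lower, with the ubiquitin ligase Cblb at 1.00; the share higher was near the 22.2% of all genes and the share lower was under their 23.0%. With replicates 1 to 3 alone 2 of these 13 were higher and 3 lower, and with replicates 4 to 6 alone 2 and 0. By day 4, 5 of the 19 kinases and adaptors were higher and 4 lower than in Ly6C+ MFs of day 2, near the 23.8% and 26.0% of all genes, and these counts were 9 and 4 with replicates 1 to 3 alone and 4 and 6 with replicates 4 to 6 alone. Among them were Blnk (1.93), Malt1 (-1.73) and Vav3 (-1.45).

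Ligands and sheddases were measured for 11 of 12 listed genes. In WT Ly6C- MFs 4 were higher and 2 lower, where 22.2% of all genes were higher and 23.0% lower. The 2 list counts were equal with either set of WT replicates. Pglyrp1, a peptidoglycan-binding protein that can activate Trem1, was lower (-1.94, adjusted p = 6.95e-16), and Apoe, a Trem2 ligand, was higher (0.76, adjusted p = 2.17e-06). Pianp, a ligand of Pilra, was higher by 0.76 and Cd99l2, a relative of the PILR ligand Cd99, by 1.12. At day 4 Pglyrp1 had fallen by 2.15 from day 2 Ly6C+ MFs, and Apoe (1.00), Pianp (1.24) and Cd99l2 (1.72) had risen, with 6 of 11 higher and 1 lower, where 23.8% of all genes were higher and 26.0% lower. With rosiglitazone the metalloprotease Adam17, which sheds Trem2, was lower in Ly6C+ MFs (-0.47, adjusted p = 0.000701), and it passed against either set of WT replicates.

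Genes of lipid-associated macrophages, the cell state in which Trem2 is best known, were measured for 19 of 20. In WT Ly6C- MFs 17 were higher and 1 lower (median 0.77), against 22.2% and 23.0% of all genes. From day 2 Ly6C+ MFs to day 4, 16 rose and 0 fell (median 0.76, against -0.09 over all genes), where 23.8% of all genes rose and 26.0% fell. Against the Ly6C- MFs of day 2, however, 3 were higher and 6 lower at day 4 (median -0.03, against -0.01 over all genes), where 14.1% of all genes were higher and 15.2% lower. Igf1 (2.96), Lpl (2.49), Cd9 (1.94) and the fatty acid transporter Cd36 (1.56) had the largest subset differences. In KO Ly6C+ MFs of day 2, where Trem2 was higher, 4 of the 19 were higher and 0 lower than in WT. They were Fabp5 (0.83), Ctsl (0.47), Gpnmb (0.36) and Ctsd (0.34), where 1.88% of all genes were called in either direction. With rosiglitazone, where Trem2 was also higher in Ly6C+ MFs, 0 of the 19 were higher and 6 were lower. Among the 6 were Cd63 (-0.70), Fabp4 (-0.65) and Fabp5 (-0.60), where 11.1% of all genes were called in either direction. Both comparisons share the untreated WT arrays. Against WT replicates 1 to 3 alone and 4 to 6 alone, 6 and 7 of the 19 were higher in KO MFs, and 8 and 1 were lower with rosiglitazone. The 1.88% and 11.1% belong to the fits with all arrays and are no background for these counts.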

How the data were processed

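MFs were profiled on 44 Affymetrix mouse gene arrays, 1 per sample. The authors deposited a table of 35556 probe sets as log2 values normalised by RMA (background correction, quantile normalisation and probe summary), as the submitters' processing notes name it; its version was not given in the sources used here. Values ran from 1.46 to 13.6, no pair of arrays was identical, and the lowest correlation between arrays was 0.935. The number of arrays limits the precision; no detection calls were used here.

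Of the probe sets, 21789 had 1 gene symbol, 1621 several and 12146 none; the 19938 genes with a probe set of their own were tested, and the highest-mean probe set stood for each of the 999 genes with several. Groups came from the labels. A mean per group was fitted with lmFit and eBayes in limma 3.58.1 (R 4.3.3) to all arrays (34 residual and 6.46 prior degrees of freedom), with 14 group comparisons and 4 differences of differences, two-sided, Benjamini-Hochberg adjusted over all genes at a threshold of 0.05. The fit was tested on simulated data. The methods of a paper that re-used these arrays do not describe their processing, so this design was chosen here.

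Named were the 7 members, up to 4 members of each list with the largest differences that passed, and the 5 genes most correlated with each member. Examples named from a list beyond these 4 (adaptors, Oscar, Lilrb4a and some neutrophil markers) were chosen after their values were seen. Members and lists were chosen with earlier results of these data known. Alternatives were a fit on the compared arrays alone, array median centring, a minimum group mean of 5 (18109 genes), the mean of all probe sets, trend and robust eBayes, either set of WT day 2 replicates, a replicate block, and leaving out each array. The same-numbered samples were checked for shared deviations from their group means: with rosiglitazone all 3 pairs of Ly6C+ and Ly6C- samples correlated (0.134 to 0.443), each best with its own number, and these are taken as pairs. Promoter windows were searched with Python 3.11.15 and aligned with Biopython 1.88 (pandas 2.3.3, matplotlib 3.10.9). No protein sequences were used, and Trem3 and Tyrobp windows were not analysed here.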

Additional observations from a re-analysis of the deposited data

Results flagged for a closer look

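In 56 groups of 4 to 6 arrays, 3 had an array far from the others by Dixon's criterion, and chance gives about 1 in 20. Trem1 read 7.05 in WT day 2 Ly6C- replicate 4, while the other 5 arrays read 8.21 to 8.59. Pilra read 11.62 in KO day 2 Ly6C+ replicate 3, while the other 4 read 11.68 to 11.70. Pilrb1 read 10.22 in WT day 1 replicate 4, while the other 3 read 10.41 to 10.43.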

How the results depend on the processing

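Of 126 values (7 genes in 18 comparisons), all kept their direction and side of the threshold with the minimum group mean, the mean of all probe sets, and trend and robust eBayes. With array centring 123 kept their side of the threshold and 3 no longer passed; 4 of the 123, none of which passed, changed sign. With only the compared arrays 117 kept both, 7 no longer passed and 2 newly passed. The number of members passing then went to 0 for KO against WT in day 2 Ly6C+ MFs, 0 for rosiglitazone in Ly6C+ MFs and 1 for KO against WT at day 4. With WT day 2 replicates 1 to 3 alone it was 4 for WT day 2 against day 1, 3 and 4 for KO against WT in Ly6C+ and Ly6C- MFs, 2 for rosiglitazone in Ly6C- MFs, and 1 each for genotype by day 1 to 2 and by day 2 to 4. With replicates 4 to 6 alone it was 1 for WT day 2 against day 1, 0 for KO against WT in Ly6C- MFs and 0 for rosiglitazone in Ly6C+ MFs, and the Pilra difference between WT day 4 and day 2 Ly6C- MFs reversed from 0.52 to -0.0049. The other comparisons kept their counts within 1.5 times under these settings.

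With the replicate number as a block, 116 of the 126 values kept their call, 5 no longer passed and 5 newly passed. Only in the rosiglitazone subset comparison did all pairs correlate above 0.1, each best with its own number. WT subset pairs correlated at 0.0108 to 0.6, with 5 of 6 above 0.1 and 3 of 6 best with their own number. KO subset pairs correlated at 0.0429 to 0.285, with 4 of 5 above 0.1 and 4 of 5 best with their own number. Whether these samples share animals is not known, and the fit of group means leaves any such pairs out. The block gave 0 members for KO against WT in day 2 Ly6C+ MFs, 0 in Ly6C- MFs, 1 for KO against WT at day 4 and 1 for rosiglitazone in Ly6C- MFs.

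Leaving out 1 array at a time, the count ranged from 2 to 4 for WT day 2 against day 1, 2 to 4 for KO day 2 against day 1, 0 to 3 for KO against WT in Ly6C- MFs, 0 to 5 for rosiglitazone in Ly6C+ MFs and 0 to 1 in Ly6C- MFs. Of 1470 such values, 1420 kept their call, and none that passed changed sign; 53 differences that did not pass did. Counts of genes called in the lists and marker sets were also run with either set of WT day 2 replicates, an alternative chosen after seeing the data: 126 of 336 counts (higher and lower apart) changed by more than 1.5 times, or to or from 0, with replicates 1 to 3 and 53 with replicates 4 to 6. The cause of these changes was not tested.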
